A study of Mus musculus with 13 samples.

Results

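The question put to these data was whether mouse bone marrow carried a transcript record of oxygen shortage after blood loss. It was put to 10 genes that are induced by low oxygen in many tissues: Slc2a1, Hk2, Pgk1, Ldha, Pdk1, Bnip3, Egln1, Egln3, Vegfa and Adm. A gene was represented by the probe set annotated to it alone, and by the probe set with the highest mean over all arrays where it had several. All 10 genes were measured, among 19938 genes in all. None of the 10 passed the test across all genes at any time after the bleed, and the largest estimate was that of Bnip3 in the single 4 h sample, 0.56 ± 0.22 (SE) on the log2 scale.

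Cells that lack oxygen accumulate hypoxia-inducible factor, because the prolyl hydroxylases that mark its alpha subunit for destruction need oxygen as a substrate. The factor then binds a short DNA motif beside genes for glucose uptake, glycolysis, the sparing of mitochondrial respiration and vessel growth. Marrow is known as a poorly oxygenated tissue at rest, and the best known response to bleeding starts in the kidney, which releases erythropoietin to drive erythroid precursors in the marrow.

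The samples were femoral bone marrow of male C57BL/6 mice aged 6 weeks, with no genetic change named in the labels. Phlebotomized mice lost 500 µL of blood by retro-orbital puncture, and 1 sample was taken 4 h later, 3 at 9 h and 2 each at 12, 15 and 48 h. The 3 baseline controls were not described as punctured. Transcript levels came from 1-colour Affymetrix Mouse Gene 1.0 ST arrays and are log2 values. The labels used here give no hour of day and do not tell whether each replicate is an animal of its own. The p-values therefore rest on sample-to-sample spread that could be partly technical.

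The 13 arrays fell into runs of 10 and 3 by the numbers in their titles. Array medians were 6.984 to 7.025 (log2 level) in the larger run and 7.774 to 7.796 in the smaller one, which held control replicate 3 and 9 h replicates 1 and 2. Values repeated between arrays there: 62.3% of probe sets were identical on 2 or all 3 arrays of the smaller run. Of the 10 genes, 6 had such repeated values there, where 75.6% of all genes did. Pgk1 and Pdk1 had 1 value on all 3 arrays, so the smaller run could show no difference for those 2. Levels are compared within a run, and fitted differences come from a model with the run as a term. The lists of marrow cells were well above the array medians in every sample: the median log2 level of 12 neutrophil markers was 12.80 to 12.96 and that of 10 erythroblast markers 11.17 to 12.05 in the larger run. Markers of other tissues differed between samples. Small intestine markers were high in the 4 h sample and liver markers in both 48 h samples. All 14 skeletal muscle markers were above the control mean in the 4 h sample, in 9 h replicate 3 and in 48 h replicate 1, with summed linear levels 3.59, 1.68 and 2.01 times that mean. The controls differed from the 9 to 48 h samples as well: the summed small intestine level of those 9 samples was 0.558 to 0.896 times the control mean, and 8 of the 18 markers passed as lower for the average of 9, 12 and 15 h, Reg3g by −1.98 ± 0.07 (SE; limma adjusted p 4.70e-07). Erfe and Cish were read as a check that samples after the bleed differ from controls. The check describes these arrays and is no independent test: at 9 h Erfe ranked 1 and Cish 3 by limma p over all genes. The erythropoietin protein was not measured, and its gene Epo is on the list of other hypoxia-inducible genes below. Erfe, the erythroblast hormone that lowers hepcidin, was higher by 1.86 ± 0.08 (SE) at 9 h (limma adjusted p 1.35e-06) and by 0.81 ± 0.10 at 4 h (adjusted p 0.00105). Cish, a feedback inhibitor of cytokine signalling, was higher by 2.40 ± 0.16 at 9 h (adjusted p 9.98e-05). The check was weaker at 48 h. Erfe was higher by 0.49 ± 0.08 there (limma adjusted p 0.0387). That call was kept in 5 of 13 fits that each left out 1 array. Control replicates 1 and 2 were among the arrays without which it was lost. Cish did not pass at 48 h (0.54 ± 0.17, limma adjusted p 0.207).

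The 4 stretches below lie just upstream of Slc2a1, Hk2 and Egln3, shown because their levels were high on the same arrays, and of Bnip3, shown because its levels spread most. Each is the last 250 bases before the RefSeq start on GRCm38.p6, read 5′ to 3′ on the gene's strand, with capitals on the core letters of the hypoxia-inducible factor motif. These are ACGTG (or CACGT where it lies on the other strand) and its variant GCGTG (or likewise CACGC). The windows are chr4:119108495-119108744 (+) for Slc2a1, chr6:82774455-82774704 (-) for Hk2, chr12:54203875-54204124 (-) for Egln3 and chr7:138909507-138909756 (-) for Bnip3.
Slc2a1: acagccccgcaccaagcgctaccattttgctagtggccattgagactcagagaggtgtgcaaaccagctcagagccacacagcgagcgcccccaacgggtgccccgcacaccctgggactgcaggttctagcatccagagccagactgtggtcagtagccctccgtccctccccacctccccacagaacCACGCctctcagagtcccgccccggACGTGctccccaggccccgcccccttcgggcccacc
Hk2: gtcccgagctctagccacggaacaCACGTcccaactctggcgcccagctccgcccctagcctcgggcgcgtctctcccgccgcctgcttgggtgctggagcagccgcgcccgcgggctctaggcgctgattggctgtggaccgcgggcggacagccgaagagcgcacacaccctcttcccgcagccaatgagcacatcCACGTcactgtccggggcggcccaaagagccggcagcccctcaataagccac
Egln3: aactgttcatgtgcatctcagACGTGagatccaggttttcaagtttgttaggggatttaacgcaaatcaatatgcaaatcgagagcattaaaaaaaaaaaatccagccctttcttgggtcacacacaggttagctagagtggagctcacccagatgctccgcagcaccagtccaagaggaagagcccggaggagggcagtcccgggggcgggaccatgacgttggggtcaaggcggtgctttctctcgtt
Bnip3: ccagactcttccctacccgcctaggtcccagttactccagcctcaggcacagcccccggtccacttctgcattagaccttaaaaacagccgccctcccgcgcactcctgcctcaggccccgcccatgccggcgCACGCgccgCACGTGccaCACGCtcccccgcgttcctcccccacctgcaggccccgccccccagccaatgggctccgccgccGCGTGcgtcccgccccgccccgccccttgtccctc

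Slc2a1 and Hk2 held 2 matches each, Egln3 held 1 and Bnip3 held 5, of which 2 overlap within CACGTG, a palindrome that other factor families also bind. In all, 9 of the 10 genes had a match in the 250-base window examined, the exception being Vegfa, and all 10 had one in at least 1 listed 300-base window, which runs 50 bases past the start. These letters are common: 43.8% of 32851 such 300-base windows of all genes hold a match, and 46.7% of genes have one in at least 1 window. The share for 250-base windows was not taken. A match describes letters and shows no binding, and a window without one says nothing of the factor.

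At 4 h after the bleed all 10 estimates were above 0, from 0.10 for Adm to 0.56 for Bnip3 on the log2 scale, with a median of 0.19 against −0.003 over all genes. None passed at an adjusted p under 0.05 (0 of 10, where 1.99% of all genes passed), and the smallest adjusted p was 0.273, for Bnip3. At an unadjusted p under 0.05 there was 1, Bnip3, where 15.2% of all genes lay. The single 4 h sample was above both controls of its run for 9 of the 10 genes, all but Vegfa, a position held by 35.7% of all genes. Markers of tissue other than marrow were high in the same sample: of 18 small intestine markers 15 were higher, with a median of 4.04 over the 18. Reg3g was at 12.32 there against 7.61 and 7.54 in the controls. The sample's summed linear level of the small intestine markers was 15.8 times the control mean. That of 14 skeletal muscle markers, none of which passed, was 3.59 times their control mean. Gut and muscle express glycolysis genes too, and the part of that tissue in the 4 h values was not tested. In a tissue sample, fewer cells of a type and less RNA per cell cannot be told apart.

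None of the 10 passed at 9 h (0.0953% of all genes passed), at 12 h (0.105%), at 15 h (0.256%) or at 48 h (0.376%). The smallest adjusted p was 0.810 at 9 h, 0.292 at 12 h, 0.311 at 15 h and 0.197 at 48 h, the last 3 for Pdk1, Adm and Pdk1. The median over the 10 was 0.07 at each of 9, 12 and 15 h and −0.05 at 48 h, where the medians over all genes were 0.01, −0.01, −0.01 and 0.01. Averaged over 9, 12 and 15 h, all 10 estimates were above 0, from 0.02 to 0.20, and again 0 of 10 passed, against 0.787% of all genes. That shared direction rests on 1 control: without control replicate 2, 5 of the 10 were above 0 for this average. At 12 h and at 15 h it was then 4 of 10 (8 of 10 at each with all arrays). Without control replicate 1 the counts were 9 for the average, 8 at 12 h and 7 at 15 h. Without control replicate 3 they were 9, 10 and 10. The 12 h and 15 h samples lie in the larger run only, and that run alone gave 10 of 10 at each. At 9 h, 8 of 10 were above 0, and 4 of 10 without 9 h replicate 3. At 4 h all 10 stayed above 0 without any 1 of the 3 controls. At 48 h relative to that average 1 of 10 was above 0 (4 of 10 without 9 h replicate 3), with 0 of 10 past the threshold against 0.978% of all genes. A moderated F-test over all 5 times passed 2.24% of all genes and none of the 10, whose adjusted p ran from 0.309 for Adm to 0.749 for Vegfa, and none was under 0.05 before adjustment, where 19.4% of all genes were.

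At an unadjusted p under 0.05 there were 0 of the 10 at 9 h, Pdk1 at 12 h, Ldha, Pdk1 and Adm at 15 h, and Pdk1 at 48 h. The shares of all genes at that level were 6.12%, 13.7%, 12.5% and 14.0%. For the average of 9, 12 and 15 h there were Ldha and Pdk1, where 12.0% of all genes lay, and for 48 h against that average there were 0, where 15.8% lay. The 95% intervals are per gene and not adjusted for the number of genes. They come from the fit to all arrays, which takes in the repeated values of the smaller run, and such values can narrow them. At 9, 12, 15 and 48 h every interval ended below a 1.5-fold rise, the highest ends being 1.38, 1.44, 1.39 and 1.45. At 4 h that held for 9 of 10, the exception being Bnip3, whose interval reached 2.07-fold. These ends hold for that fit only. Without control replicate 3 the log2 estimate of Slc2a1 at 9 h was 0.50 (0.22 with all arrays). Without control replicate 1 that of Bnip3 at 12 h was 0.44 (0.13 with all arrays).

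**Figure D1:**
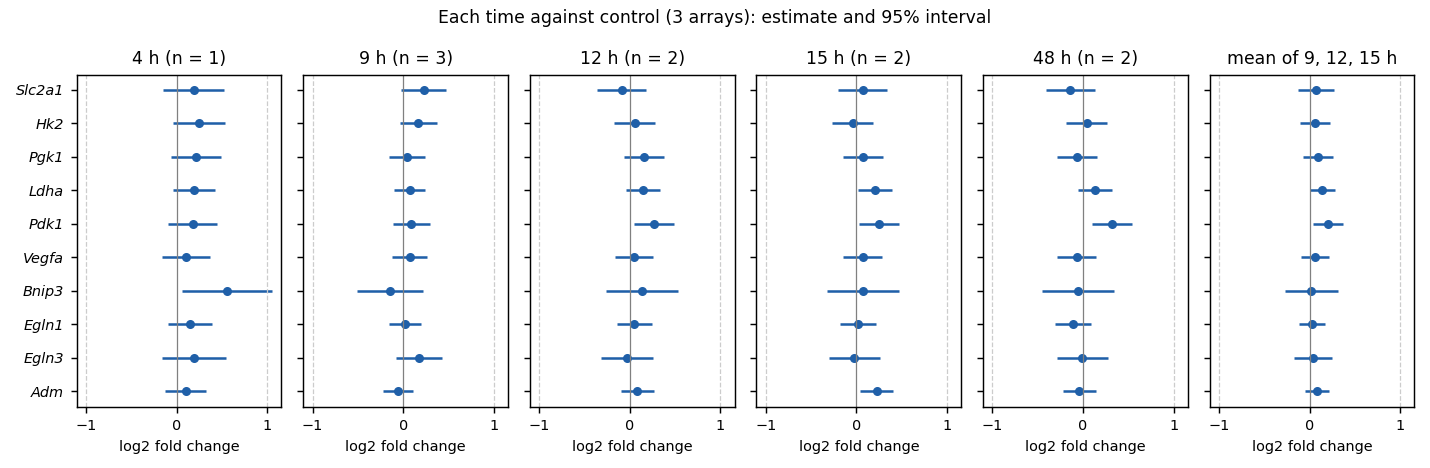
Log2 fold change against control (x axis) of the 10 genes (y axis) at each time and for the mean of 9, 12 and 15 h, from the limma fit to all 13 arrays with the run as a term; points are estimates, bars are 95% intervals per gene and dashed lines mark a log2 fold change of −1 and 1. The bar of Bnip3 at 4 h, from 0.06 to 1.05, reaches farthest to the right.

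Glucose entry and capture were covered by Slc2a1, which encodes the transporter GLUT1, and Hk2, the hexokinase that traps glucose in the cell. Slc2a1 (probe set 10507594) was at a log2 level of 8.88 and 8.91 in the 2 controls of the larger run, 9.18 at 4 h, 9.40 in 9 h replicate 3, 8.82 and 8.98 at 12 h, 9.01 and 9.10 at 15 h, and 8.83 and 8.87 at 48 h. In the smaller run its level was 9.79 in the control and 9.79 and 9.68 at 9 h. Within the larger run it was thus high at 9 h, 4 h and 15 h, lower than both controls at 48 h, and on both sides of them at 12 h. The fitted difference was 0.22 ± 0.11 (SE) at 9 h (adjusted p 0.810), 0.19 ± 0.15 at 4 h and −0.14 ± 0.12 at 48 h. Within the larger run alone, the difference from the control mean was 0.28 at 4 h, 0.003 at 12 h, 0.16 at 15 h and −0.05 at 48 h.

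The 9 h value of Slc2a1 came from 1 array. In the larger run the 9 h sample exceeded the control mean by 0.50, whereas in the smaller run the 9 h mean was 0.05 below its control. Without 9 h replicate 3 the fitted 9 h difference was −0.05. That array also had all 14 muscle markers above the control mean of its run (median 0.73 on the log2 scale) and the lowest stroma markers of all arrays (median −0.72, summed level 0.449 times the control mean), and their part in its values was not tested. Hk2 (probe set 10545588) followed the same pattern, at 8.15 and 8.10 in the larger run's controls, 8.44 at 4 h, 8.50 in 9 h replicate 3, 8.18 and 8.32 at 12 h, 8.10 and 8.20 at 15 h, and 8.26 and 8.21 at 48 h. Its smaller-run levels were 8.89 in the control and 8.89 and 8.81 at 9 h. The 4 h and 9 h samples of the larger run were its highest there, while the 12 h and 48 h samples lay just above both controls. None of these passed: the difference was 0.25 ± 0.13 at 4 h (adjusted p 0.401) and 0.17 ± 0.09 at 9 h (adjusted p 0.810), the latter again 0.37 in the larger run and −0.04 in the smaller.

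**Figure D2:**
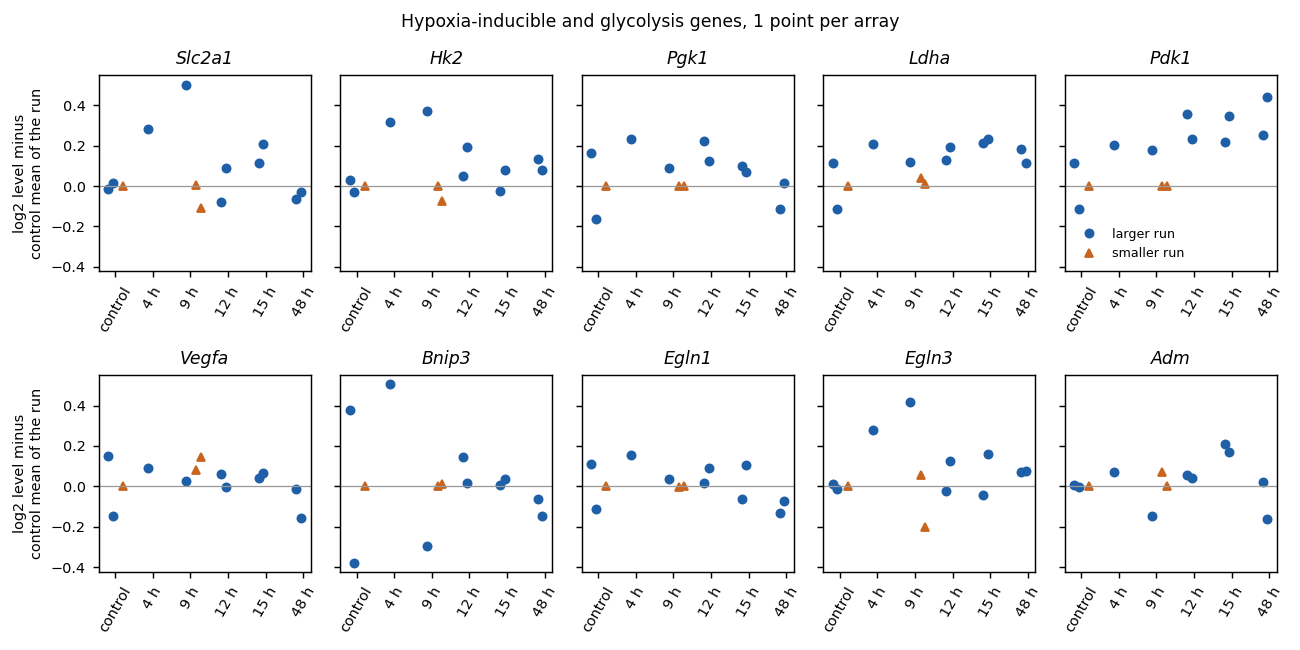
Log2 level minus the control mean of the same run (y axis) for each of the 10 genes by time after the bleed (x axis), 1 point per array, with circles for the larger and triangles for the smaller run. Slc2a1, Hk2 and Egln3 are highest in the 9 h sample of the larger run, while their 9 h samples of the smaller run lie at or below its control but for 1 of Slc2a1 and 1 of Egln3.

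The payoff and fermentation steps of glycolysis were covered by Pgk1, phosphoglycerate kinase, and Ldha, which turns pyruvate into lactate. Ldha (probe set 10553301) was at 12.07 and 11.84 in the larger run's controls, 12.16 at 4 h, 12.08 in 9 h replicate 3, 12.09 and 12.15 at 12 h, 12.17 and 12.19 at 15 h, and 12.14 and 12.07 at 48 h; in the smaller run it was 12.68 in the control and 12.72 and 12.69 at 9 h. It was the one gene of the 10 for which every 9, 12 and 15 h array was above every control of its run, a position held by 3.32% of all genes. The margins were small: control replicate 1 lay 0.23 above control replicate 2 and almost level with the 9 h sample of its run. The fitted difference was 0.21 ± 0.08 at 15 h (1.15-fold, 95% interval 1.02 to 1.31, adjusted p 0.352) and 0.14 ± 0.06 over 9, 12 and 15 h (adjusted p 0.393). Without control replicate 2 these became 0.11 and 0.06.

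Pgk1 had 3 probe sets annotated to it alone, whose values were nearly identical on every array (Pearson r of at least 0.999), so they are not separate measurements. The one used (10399379) was at 11.12 and 10.79 in the larger run's controls, 11.18 at 4 h, 11.04 in 9 h replicate 3, 11.17 and 11.08 at 12 h, 11.05 and 11.02 at 15 h, and 10.84 and 10.96 at 48 h, and at 11.84 on all 3 arrays of the smaller run. The controls spanned every later sample but the 4 h one and 12 h replicate 1. Its largest fitted difference was 0.22 ± 0.12 at 4 h (adjusted p 0.455), followed by 0.16 ± 0.10 at 12 h (adjusted p 0.524). Without control replicate 2 these became 0.09 and 0.03.

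Mitochondria were covered by Pdk1, the kinase that shuts off pyruvate dehydrogenase, and Bnip3, an outer membrane receptor for mitophagy. Pdk1 (probe set 10472846) was at 8.22 and 7.995 in the larger run's controls, 8.31 at 4 h, 8.29 in 9 h replicate 3, 8.47 and 8.34 at 12 h, 8.33 and 8.46 at 15 h, and 8.36 and 8.55 at 48 h, and at 9.03 on all 3 arrays of the smaller run. Every later sample of the larger run was above both controls, which was seen for no other gene of the 10 (1 of 10, where 4.76% of all genes were so placed). The fitted differences were 0.27 ± 0.10 at 12 h (adjusted p 0.292), 0.25 ± 0.10 at 15 h (adjusted p 0.348) and 0.32 ± 0.10 at 48 h (1.25-fold, 95% interval 1.07 to 1.45, adjusted p 0.197). Without control replicate 2 they were 0.16, 0.15 and 0.21. Liver markers were high in both 48 h samples: 8 of 12 passed as higher, with a median of 1.501 over the 12. Their summed linear level was 2.32 and 2.68 times the control mean. Alb, the plasma albumin gene, was at 11.69 and 11.44 there against 6.87 and 7.23 in the controls, and the part of that tissue in the 48 h values was not tested.

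Bnip3 (probe set 10414269) had the widest spread of the 10. It was at 8.73 in control replicate 1 and 7.97 in control replicate 2, a gap of 0.76 that is wider than for 98.7% of genes. The later samples of the larger run were 8.86 at 4 h, 8.05 in 9 h replicate 3, 8.50 and 8.37 at 12 h, 8.36 and 8.38 at 15 h, and 8.29 and 8.20 at 48 h, and the smaller run had 9.11 in the control and 9.11 and 9.12 at 9 h. All larger-run samples but the 4 h one lay between the 2 controls, so whether Bnip3 rose depends on the control taken. With all controls the 4 h difference was 0.56 ± 0.22 (95% interval 0.06 to 1.05, adjusted p 0.273). Without control replicate 1 it passed at 4 h, by 0.86 ± 0.10 (adjusted p 0.000777), at 12 h, by 0.44 ± 0.08 (adjusted p 0.0370), and at 15 h, by 0.38 ± 0.08 (adjusted p 0.0493). Without control replicate 2 it passed at none of these times, and the differences were 0.32 at 4 h, −0.10 at 12 h and −0.16 at 15 h.

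A second Bnip3 probe set (10568785), which followed the first with a run-centred r of 0.62, was at 7.78 and 7.40 in the same controls, 8.04 at 4 h, 7.86 in 9 h replicate 3, 7.75 and 7.69 at 12 h, 7.78 and 7.89 at 15 h, and 7.69 and 7.82 at 48 h. It too was highest at 4 h, and its control gap was narrower, but it placed the 9 h sample above both controls where the first probe set placed it near the lower one. More generally, 9 of the 10 genes were higher in control replicate 1 than in control replicate 2, where 47.7% of all genes were, and the exception was Slc2a1 (−0.03). The gap was small for Adm (0.01), Egln3 (0.02) and Hk2 (0.06). For the rest of the 9 it ran from 0.22 for Egln1 to 0.76 for Bnip3. The erythroblast markers, by their median, differed between these controls in the other direction, at −0.27 and 0.27 around the control mean. The osteoblast, stroma and endothelium markers differed in the same direction as those 9 genes, at 0.25 and −0.25. Their summed levels were 1.22 and 0.784 times the control mean. The part of either list in the gap was not tested.

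Egln1 and Egln3 encode the oxygen-sensing prolyl hydroxylases PHD2 and PHD3, which are themselves induced by the factor they restrain. Egln3 (probe set 10400304) was at 8.10 and 8.08 in the larger run's controls, 8.36 at 4 h, 8.51 in 9 h replicate 3, 8.06 and 8.21 at 12 h, 8.05 and 8.25 at 15 h, and 8.16 and 8.17 at 48 h. In the smaller run it was 8.88 in the control and 8.93 and 8.68 at 9 h, one above and one below. As with Slc2a1 and Hk2, the highest larger-run samples were those of 9 h, on the array with high muscle and low stroma markers, and 4 h, and the fitted 9 h difference of 0.17 ± 0.12 (adjusted p 0.833) combined 0.42 in the larger run with −0.07 in the smaller. Egln1 (probe set 10582712) stayed between 8.26 and 8.55 in the larger run, with its controls at 8.51 and 8.28, and between 9.26 and 9.27 in the smaller. Its lowest level was at 48 h and its highest at 4 h, and its differences ran from −0.11 ± 0.09 at 48 h to 0.15 ± 0.11 at 4 h (adjusted p 0.621 and 0.584), the latter 0.06 without control replicate 2.

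The secreted products were Vegfa, which drives vessel growth, and Adm, the vasodilator peptide adrenomedullin. Vegfa (probe set 10451198) was at 8.59 and 8.29 in the larger run's controls, 8.53 at 4 h, 8.47 in 9 h replicate 3, 8.50 and 8.44 at 12 h, 8.48 and 8.51 at 15 h, and 8.43 and 8.28 at 48 h, and at 9.53 in the control and 9.61 and 9.67 at 9 h of the smaller run. The larger run's controls enclosed all later samples but one of 48 h, and the differences ran from −0.07 ± 0.10 at 48 h to 0.10 ± 0.12 at 4 h. No 95% interval of Vegfa reached above 1.29-fold. Adm (probe set 10556297) was at 6.15 and 6.14 in the controls, 6.22 at 4 h, 6.00 in 9 h replicate 3, 6.20 and 6.19 at 12 h, 6.36 and 6.32 at 15 h, and 6.17 and 5.98 at 48 h, and at 7.14, 7.21 and 7.14 in the control and the 9 h samples of the smaller run. Both 15 h samples were its highest in the larger run and 9 h replicate 3 and one 48 h sample its lowest. The 15 h difference was 0.22 ± 0.08 (1.17-fold, 95% interval 1.03 to 1.32, adjusted p 0.311). Adm lay below the median of its arrays, where small changes are hard to measure on this type of array.

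Counts of samples that did not overlap their controls gave the same picture by time. At 9 h, Ldha was above every control of its run on all 3 arrays (1 of 10, where 6.29% of all genes were). At 12 h this held for Hk2, Ldha, Pdk1 and Adm (4 of 10, where 20.1% were), and at 15 h for Slc2a1, Ldha, Pdk1 and Adm (4 of 10, where 20.3% were). At 48 h Hk2, Pdk1 and Egln3 lay above both controls (3 of 10, where 24.2% were) and Slc2a1 below both (1 of 10, where 16.0% were). Ldha, Pdk1 and Adm were above both controls at 12 h and at 15 h alike (3 of 10, where 12.0% of all genes were). The times share these controls, and none of the differences passed.

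**Figure D3:**
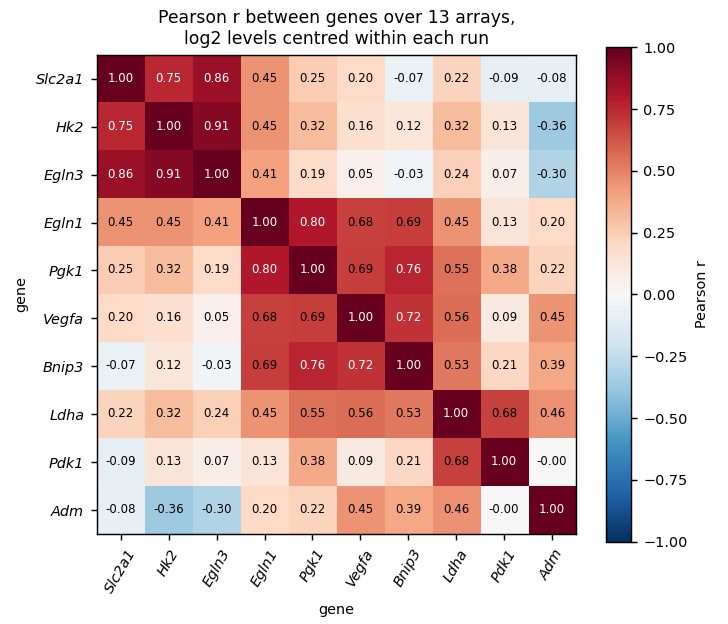
Pearson r between the 10 genes over 13 arrays, with log2 levels centred within each run; both axes list the genes and the colour runs from −1 to 1. One block holds Slc2a1, Hk2 and Egln3 and a second holds Egln1, Pgk1, Vegfa and Bnip3.

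The 10 genes did not move as one set across the 13 arrays. Centred within each run, the 45 pairs had a median Pearson r of 0.32, and 10 pairs were above 0.6. The pairs were picked by size, share arrays and depth of measurement, and are given without p. Hk2 and Egln3 had the highest r, 0.91 (Spearman rho 0.83), then Slc2a1 and Egln3, 0.86 (rho 0.72), and Slc2a1 and Hk2, 0.75 (rho 0.57). Without the 4 h sample and 9 h replicate 3, the 2 arrays farthest from the median of these genes, r fell to 0.74, 0.58 and 0.20, so the last of them rests on those arrays. The second block was Pgk1 with Egln1 (0.80), Bnip3 (0.76) and Vegfa (0.69), with Vegfa and Bnip3 at 0.72. Without control replicates 1 and 2 r for these 4 pairs, in the same order, was 0.73, 0.63, 0.50 and 0.49 over 11 arrays. Ldha and Pdk1 had an r of 0.68 but a rho of 0.26, and without the 2 arrays farthest from the median of Ldha r was −0.18, so that relation rests on those arrays.

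Run-centred Pearson r over 13 arrays was searched among the 19938 genes, with predicted genes and other members skipped. The genes most like a member are given for the 3 with the smallest p in the F-test, Adm, Pdk1 and Slc2a1. For Slc2a1 they were Tarm1, a myeloid cell receptor (r 0.958), Prkx, a protein kinase (0.957), and Inpp4a, a phosphoinositide phosphatase (0.947). For Pdk1 they were Taf11, a subunit of the general transcription factor TFIID (0.961), Eea1, an early endosome tether (0.949), and Adk, adenosine kinase (0.948). For Adm they were Zfp423 (0.918), Bfsp1 (0.908) and Samd4 (0.899). Leaving out the 4 h sample moved none of the 9 values below 0.897. High values of this kind are to be had by search among many genes on few arrays. None of the 9 was on the pathway lists that follow.

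The rest of the pathway was read from lists of textbook genes. Of 28 other glycolysis enzymes and transporters 22 were measured, and none passed at any time. At 4 h, where the gut and muscle markers were high, 7 of the 22 were higher and 1 was lower at an unadjusted p under 0.05, where 15.2% of all genes lay in either direction. Aldoa, aldolase A, by 0.47 ± 0.11 (adjusted p 0.0605) and Eno3, the muscle enolase, by 0.99 ± 0.25 (adjusted p 0.0880) were among the higher, and Slc16a1, a lactate transporter, was the lower one, at −0.34 ± 0.15 (adjusted p 0.310). Their median was 0.15 at 4 h and between −0.06 and 0.06 at the other times, against medians of all genes between −0.01 and 0.01.

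Of 30 other hypoxia-inducible genes 28 were measured, and 1 passed in 1 comparison. Nos2, the inducible nitric oxide synthase, was at 8.29 at 4 h against 6.34 and 6.39 in the controls of its run, a rise of 2.005 ± 0.145 (SE) (adjusted p 7.95e-06). The rise is that of 1 sample, the one with high small intestine markers, and the part of that tissue was not tested. At 9, 12, 15 and 48 h none of the 28 passed, and the list's median lay between −0.04 and 0.06. Car12, a carbonic anhydrase, had the largest estimate after 4 h, 1.01 ± 0.35 at 15 h (adjusted p 0.295). P4ha1, a collagen prolyl hydroxylase, was at 0.47 ± 0.13 at 12 h (adjusted p 0.178).

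The 16 oxygen sensors and factor subunits were all measured and none passed. Hif1a, the inducible alpha subunit, differed by no more than 0.21 in either direction (−0.21 ± 0.13 at 48 h, adjusted p 0.487). Epas1, the second alpha subunit, was at 9.92 and 10.12 at 15 h against 9.57 and 9.46 in the controls, above both, and its difference of 0.46 ± 0.10 did not pass (adjusted p 0.109). These subunits are controlled mainly as proteins, which arrays do not measure. None of 11 measured pyruvate dehydrogenase genes passed, Pdk4 being at 0.78 ± 0.30 at 12 h (adjusted p 0.292), and none of 10 measured mitophagy partners of Bnip3, Bnip3l being at −0.20 ± 0.07 at 15 h (adjusted p 0.297). Of 15 genes of the VEGF family, adrenomedullin and their receptors none passed against control. Ackr3, an atypical receptor that takes up adrenomedullin and chemokines, passed in 1 comparison: it fell by 0.47 from the average of 9, 12 and 15 h to 48 h (adjusted p 0.0450), a call kept in 3 of 13 fits that each left out 1 array.

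**Figure D4:**
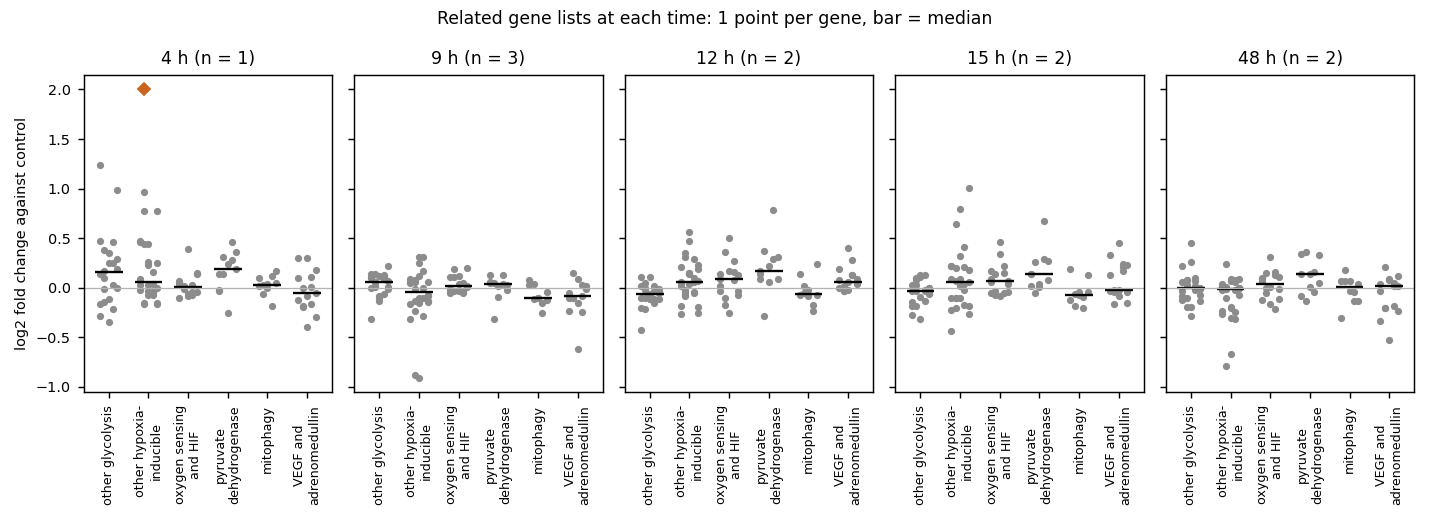
Log2 fold change (y axis) at each time against control for the measured genes of the 6 related lists (x axis), with 1 point per gene, a bar at the list's median and a diamond for a gene that passed. The one diamond is Nos2 at 4 h, at 2.005.

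Few markers of marrow cells passed, although medians of some lists differed from 0 by more than that of the 10 genes: −0.38 for erythroblasts at 4 h, −0.34 for B lineage at 12 h, −0.32 for megakaryocytes at 12 h, and −0.39 at 9 h and −0.34 at 48 h for stroma. None of 12 neutrophil, 10 monocyte and macrophage or 10 osteoblast, stroma and endothelium markers passed at any time, and the summed neutrophil level ranged from 0.882 to 1.02 times the control mean over the 10 later samples. The 10 erythroblast markers had a summed level of 0.808 at 4 h and 1.10 and 1.21 at 48 h, and Tfrc, the transferrin receptor, passed for the average of 9, 12 and 15 h (0.46 ± 0.09, adjusted p 0.0453, kept in 2 of 13 fits without 1 array). Ebf1, a B cell factor, was lower at 4 h (−0.57, adjusted p 0.0277, lost without control replicate 2 or without 9 h replicate 1), and Gp9, a platelet glycoprotein, was lower for the average of 9, 12 and 15 h (−0.34, adjusted p 0.0314, kept in 4 of 13). Stroma markers had their lowest summed levels in 9 h replicate 3 (0.449), the array with the highest Slc2a1, Hk2 and Egln3 of the larger run, and at 48 h (0.523 and 0.703). The part of these shifts in cell content in the values of the 10 genes was not tested.

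**Figure D5:**
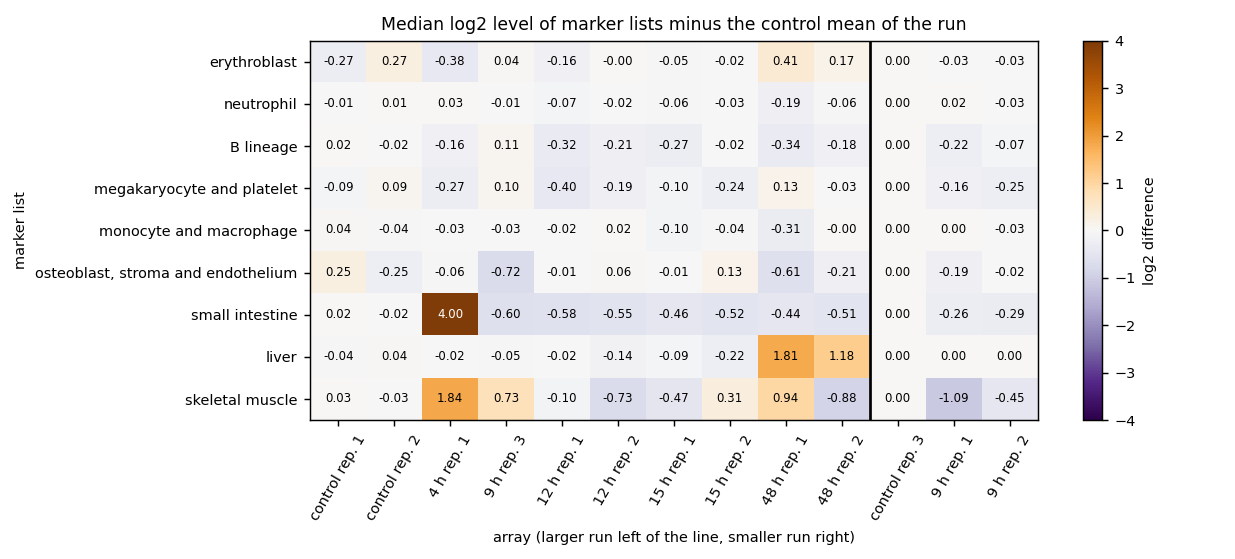
Median log2 difference from the control mean of the run for each list of cell or tissue markers (rows) on each array (columns). Small intestine and skeletal muscle are highest in the 4 h sample and liver in both 48 h samples; muscle is also above 0 in 9 h replicate 3 (0.73) and 48 h replicate 1 (0.94), and stroma is lowest in 9 h replicate 3 (−0.72).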

How the data were processed

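Femoral marrow of 13 samples was hybridised to 1-colour Affymetrix Mouse Gene 1.0 ST arrays. The deposited table holds log2 levels. The authors made them with RMA according to the submitters' processing notes. The RMA version and which arrays were normalized together are not given in the sources used here. Of 35557 probe sets, 21789 have 1 gene symbol in the platform annotation, 1621 several and 12147 none; only the first kind was used, with 21698 symbols updated through the Entrez identifier, which left 19938 genes after the probe set with the highest mean was taken per gene. RMA shrinks differences of dim probe sets, and values repeated between arrays of the smaller run limit what that run can show.

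Samples were grouped by the time in their labels. Replicate numbers follow sample order and pair nothing. A linear model of 6 groups plus a fixed run term was fitted to all 13 arrays in limma 3.58.1 (R 4.3.3) and moderated with eBayes (6 residual and 4.62 prior degrees of freedom); a fold change is a difference of log2 levels. The control level in this fit borrows from both runs through the run term, so fitted and within-run differences can part. Within-run differences are printed for Slc2a1, and at 9 h for Hk2 and Egln3. For the lone 4 h sample the spread of the other groups was assumed. The threshold was an adjusted p (Benjamini-Hochberg, over all genes) under 0.05. The model was tested on simulated data. Precision is limited by the number of arrays.

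The members and lists were chosen with earlier results of these data known. Named are all members, up to 4 called genes per list by smallest adjusted p, the 3 genes most alike for 3 members, Erfe and Cish; Aldoa, Eno3, Slc16a1, Car12, P4ha1, Hif1a, Epas1, Pdk4, Bnip3l and Alb were named after their values were seen. Promoter sequences are RefSeq's, on GRCm38.p6. Alternatives covered the run term, each run alone, scaling, dim genes, all probe sets, the moderation, array weights and leaving out each array. Plots used matplotlib 3.10.9 (Python 3.11.15).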

Additional observations from a re-analysis of the deposited data

Results flagged for a closer look

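Slc2a1 was above both controls of the larger run at 4 h and 15 h and below both at 48 h. The fitted differences were 0.19, 0.0698 and −0.14, and those within the larger run 0.28, 0.16 and −0.05. The difference between 4 h and 48 h and that between 15 h and 48 h were not tested; 48 h against the average of 9, 12 and 15 h gave −0.21 ± 0.11 (SE; limma adjusted p 0.366), and −0.08 without 9 h replicate 3.

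Between 48 h and the average of 9, 12 and 15 h, 6 named genes of the lists differed by the test of that difference: Ackr3 by −0.47, Gp9 by 0.38, Ttr by 1.46, Ahsg by 2.26, Fgg by 2.03 and Cyp2e1 by 1.81. The last 4 are liver markers, and Gp9 kept its call in 4 of 13 fits that each left out 1 array. None of the 10 genes differed in that comparison. No group had the 4 samples needed to look for a sample far from the others.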

How the results depend on the processing

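The count of 0 of the 10 genes past the threshold was kept under the alternatives in every comparison, with these exceptions, all of them Bnip3. With array weights the count was 1 at 4 h (0.64 ± 0.14, adjusted p 0.0250) and 1 for the F-test. Leaving out each array in turn gave 0 to 1 at 4 h, 12 h, 15 h and for the F-test, with the 1 coming from the fit without control replicate 1. Without the run term the median of the 10 moved to −0.05 at 4 h, 0.34 at 9 h, −0.19 at 12 h, −0.21 at 15 h, −0.35 at 48 h and −0.30 for 48 h against the middle times, where the median of all genes also moved, to −0.26, 0.27, −0.27, −0.26, −0.24 and −0.16. No called value of a member reversed; of the members' single values under the alternatives 1566 stayed within the replicate spread or on their side, 54 moved and 4 became called. Counts over all genes depend far more on the controls: without control replicate 1 they were 1359 at 4 h (397 with all arrays), 414 at 12 h (21) and 505 at 15 h (51), and without control replicate 2 they were 293, 7 and 10. At 9 h, 75 passed without control replicate 3 and 8 without control replicate 2 (19 with all). The smaller run alone gave 2073 at 9 h, with 1 residual degree of freedom and many repeated values, a setting added after seeing the data. Without the 4 h sample there is no 4 h comparison, and leaving out dim genes dropped Adm.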
